A study of Mus musculus with 9 samples.

Results

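Complement was examined through 9 genes: the complement components C3, Cfb, Cfd, C4b, C1qa and C1qb, the anaphylatoxin receptors C3ar1 and C5ar1, and the regulator Cd55. Members were the probe sets that the array annotation gives to one of these symbols, and they were read in all 9 arrays. The annotation listed probe sets for 7 of the 9 symbols, 15 probe sets in all, and C3 and Cfd are not analysed here. C1qa, C1qb, Cfb, C3ar1, C5ar1 and Cd55 had 13 probe sets of their own. C4b had only a probe set shared with C4a, and 1 further probe set was shared by Cd55 and Cd55b. The 6 genes with a probe set of their own were among 14122 genes tested, of 18193 that had such a probe set.

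Skin RNA came from C57BL/6 mice whose ears had been treated for 6 h. Of the 9 arrays, 3 were treated with DNFB (dinitrofluorobenzene), a chemical that acts as a contact allergen, 3 with BAC (benzalkonium chloride), an irritant detergent, and 3 with acetone and olive oil alone, the vehicle. Right ears received DNFB or BAC and left ears the vehicle, and the side cannot be told apart from the treatment. Neither doses nor the animals behind each array are given in the sources used here, and p-values measure only how far these samples spread, which may be technical spread.

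Complement is a cascade of plasma and tissue proteins that marks surfaces for uptake, attracts leukocytes and can lyse cells. The classical pathway starts when C1q binds antibody or damaged material and activates the proteases C1r and C1s, which cleave C4 and C2. The alternative pathway amplifies the response through factor B, factor D and properdin, and both meet at C3, whose fragments act on receptors of myeloid cells. Host cells are protected by regulators on their membrane, among them CD55, which speeds the decay of the enzymes that cleave C3. Liver makes most plasma complement, while macrophages, fibroblasts and keratinocytes make components within skin.

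Each array had been scaled to one trimmed mean signal of 250.001. Keratinocyte markers were strong in every array, with Krt10 between 18972 and 31242. RNA integrity was read from the Gapdh control probe sets at either end of the transcript, whose 3' over 5' signal was 1.36 in DNFB replicate 2 and between 0.841 and 0.943 in the other 8 arrays. For Gapdh and for actin this value was higher in all 3 BAC arrays (0.917 to 0.932 and 1.18 to 1.22) than in any vehicle array, and for actin it was higher still in DNFB replicates 2 and 3 (1.28 and 1.23).

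Among the members, Cd55 rose after BAC, and at the level of genes no other member passed the test in any of the 3 comparisons. After DNFB 0 of the 6 tested genes passed the limma test at an adjusted p of 0.05, where 13.8% of all tested genes did. After BAC 1 of 6 passed, where 14.2% of all tested genes did, and between DNFB and BAC 0 of 6 passed, beside 6.8%. Without adjustment, 3 of 6 genes had a p under 0.05 after DNFB, 3 after BAC and 1 between the compounds. The median log2 change of the 6 genes was 0.10 after DNFB and 0.24 after BAC, beside 0.0022 and -0.031 over all tested genes. In 2 of the 6 genes every DNFB array lay above every vehicle array, as in 15.2% of tested genes, and in 3 of 6 every BAC array did, as in 14.9%. In 2 of 6, C3ar1 and C5ar1, every DNFB array lay below every BAC array, as in 11.4% of tested genes. Both comparisons use the same vehicle arrays, and their values are given side by side. The number of arrays limits the precision of each value.

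**Figure D1:**
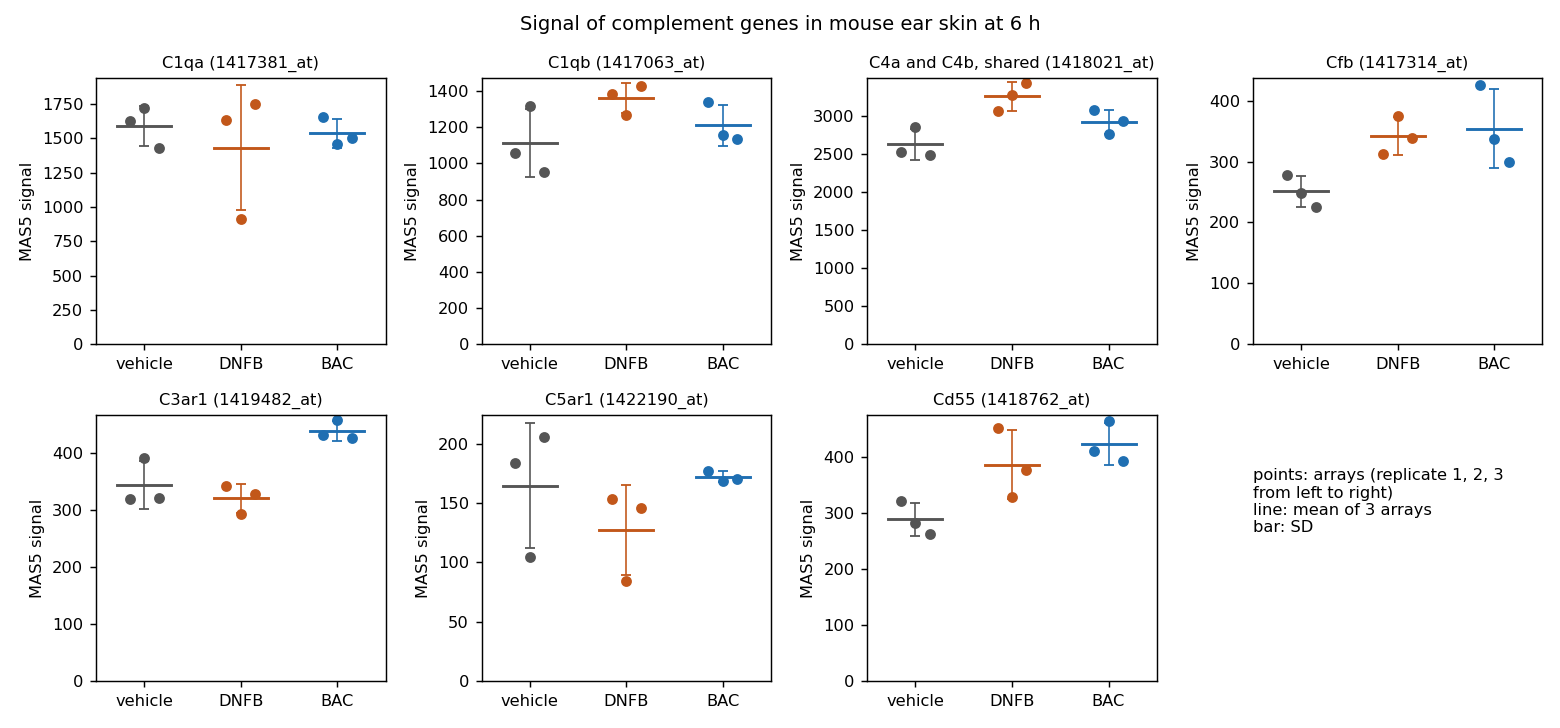
MAS5 signal of 6 complement genes and of the probe set shared by C4a and C4b, by treatment, with points for single arrays, lines for the mean of 3 arrays and bars for the SD. Cd55 and Cfb lay higher in all DNFB and BAC arrays than in all vehicle arrays, and C1qa was lowest in DNFB replicate 2 at 912.

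**Figure D2:**
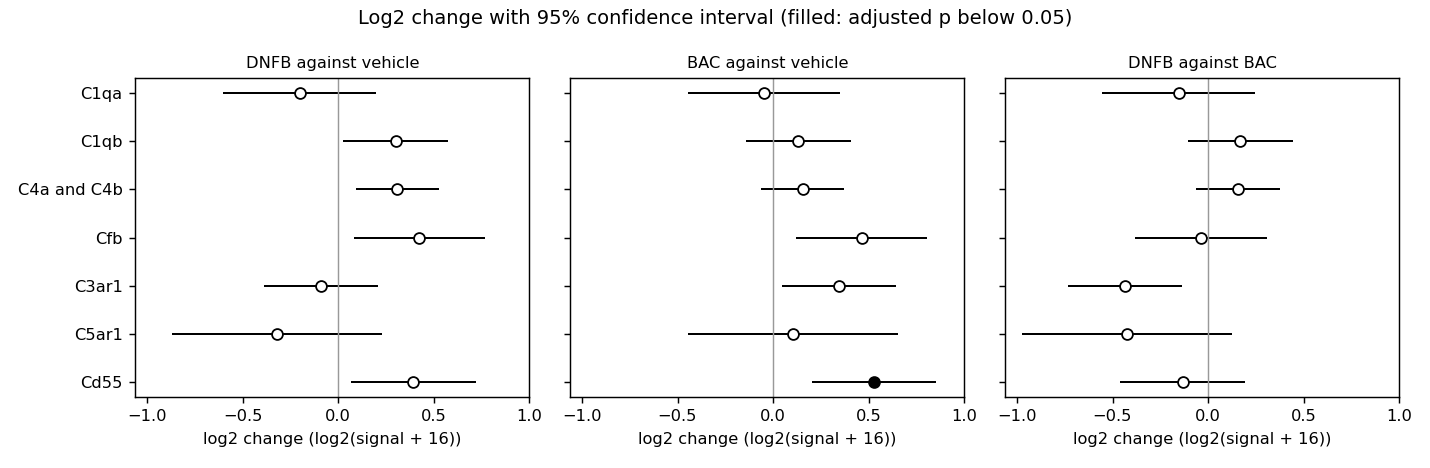
Log2 change of the same genes in each comparison on the log2(signal + 16) scale, with the 95% confidence interval from limma and a filled point where the adjusted p was below 0.05. Cd55 after BAC, at 0.53, is the filled point.

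C1q is built from 3 chains, whose genes C1qa, C1qc and C1qb are neighbours with no other protein-coding gene between them in RefSeq GRCm38.p6. C1qa (Entrez gene 12259, probe set 1417381_at) had signals of 1626, 1717 and 1431 in the vehicle (replicates 1 to 3, the order used throughout), 1634, 912 and 1751 after DNFB, and 1657, 1455 and 1499 after BAC. The groups overlapped, and DNFB replicate 2 stood well below the other 8 arrays. The log2 change of C1qa was -0.20 after DNFB (95% interval -0.59 to 0.19, limma adjusted p = 0.55) and -0.047 after BAC (-0.44 to 0.35, adjusted p = 0.90). Without DNFB replicate 2, the array with the high Gapdh ratio, its change after DNFB was 0.091 (limma adjusted p = 0.707).

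C1qb (Entrez gene 12260, probe set 1417063_at) gave 1060, 1318 and 955 in the vehicle, 1384, 1270 and 1430 after DNFB, and 1342, 1157 and 1135 after BAC. Vehicle replicate 2 overlapped with the DNFB arrays, while the other vehicle arrays lay below all of them. The log2 change was 0.30 ± 0.13 (SE) after DNFB (95% interval 0.030 to 0.57, limma adjusted p = 0.143) and 0.13 ± 0.13 after BAC (-0.14 to 0.40). Without vehicle replicate 2 the DNFB change of C1qb was 0.43 and passed (adjusted p = 0.0333). Its other probe sets, 1434366_x_at and 1437726_x_at, had log2 changes of 0.17 and 0.31 after DNFB. C1qc, the chain outside the named members, had a log2 change of 0.22 after DNFB (95% interval -0.026 to 0.46) and 0.032 after BAC (-0.21 to 0.28). In DNFB replicate 2, where C1qa was at its lowest, that of C1qc was 1937, between those of the other DNFB arrays (1755 and 2119).

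The proteases that C1q activates did pass the test. C1ra, which encodes C1r, rose from 648 ± 34.8 in the vehicle to 1147 ± 140 after DNFB and 954 ± 95.8 after BAC (SD, n = 3). These are log2 changes of 0.80 ± 0.12 (SE, limma adjusted p = 0.000359) and 0.54 ± 0.12 (adjusted p = 0.0075). Its neighbour C1s1, which encodes C1s, rose from 851 ± 43.8 to 1147 ± 138 after DNFB (log2 change 0.42 ± 0.13, adjusted p = 0.0441). After BAC the log2 change of C1s1 was 0.27 ± 0.13 (adjusted p = 0.185). The C1s1 call ended without any 1 vehicle array, without DNFB replicate 2 or 3 and without BAC replicate 1 (adjusted p from 0.055 to 0.148). With each array centred on its median the BAC change of C1ra was 0.46 (adjusted p = 0.0668).

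C4, which C1s cleaves, was read by probe set 1418021_at, whose target the annotation gives to both C4a and C4b, so that their signals cannot be told apart. It gave 2526, 2852 and 2489 in the vehicle, 3059, 3269 and 3429 after DNFB, and 3071, 2753 and 2925 after BAC. Every DNFB array lay above every vehicle array, and the BAC arrays overlapped with both groups. In the fit of all 29987 probe sets the log2 change was 0.31 ± 0.10 after DNFB (95% interval 0.10 to 0.52, limma adjusted p = 0.0614) and 0.15 ± 0.10 after BAC (-0.059 to 0.37, adjusted p = 0.379).

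C2 and Cfb, the proteases that cleave C3 once bound to C4b or C3b, lie next to each other in the genome. Cfb (Entrez gene 14962, probe set 1417314_at), the factor B of the alternative pathway, gave 278, 249 and 226 in the vehicle, 313, 375 and 338 after DNFB, and 427, 337 and 299.9 after BAC. All 6 treated arrays lay above all 3 vehicle arrays. The log2 change of Cfb was 0.42 ± 0.16 after DNFB (95% interval 0.086 to 0.76, limma adjusted p = 0.0936) and 0.46 ± 0.16 after BAC (0.12 to 0.80, adjusted p = 0.0662). Neither passed, and both passed after quantile normalization (0.51, adjusted p = 0.0465, and 0.53, adjusted p = 0.0359). Between the compounds Cfb differed by -0.038, DNFB minus BAC (-0.38 to 0.30).

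C2 showed another pattern, with a mean signal of 415 ± 64.8 in the vehicle, 581 ± 52.1 after DNFB and 363 ± 54.3 after BAC. Its log2 change was 0.48 ± 0.15 after DNFB (limma adjusted p = 0.0494) and -0.18 ± 0.15 after BAC (adjusted p = 0.474), and C2 was higher after DNFB than after BAC by 0.66 ± 0.15 (adjusted p = 0.0164). These values come from 1 of 3 probe sets, 1441912_x_at. The other probe sets of C2, 1416051_at and 1457664_x_at, had log2 changes of 0.16 and -0.084 after DNFB. The DNFB call of C2 ended without any 1 vehicle array, without DNFB replicate 2 or 3 and without BAC replicate 1 (adjusted p from 0.0575 to 0.214), and with the mean of the probe sets (0.19, adjusted p = 0.44). The call between DNFB and BAC ended without DNFB replicate 2 or 3 or BAC replicate 3 (adjusted p from 0.0638 to 0.0701) and with the mean of the probe sets (0.34, adjusted p = 0.181).

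Cfp encodes properdin, which stabilises the alternative pathway enzyme and is stored by neutrophils. It rose from 210 ± 38.0 to 315 ± 41.0 after DNFB (log2 change 0.56 ± 0.17, limma adjusted p = 0.0359) and to 401 ± 49.1 after BAC (0.89 ± 0.17, adjusted p = 0.00196). Its second probe set, 1447537_at, had log2 changes of 0.36 ± 0.38 after DNFB and 0.079 ± 0.38 after BAC, and with the mean of both the calls ended (adjusted p = 0.265 and 0.224). The DNFB call also ended without vehicle replicate 1 or 3 or DNFB replicate 1 or 3 (adjusted p from 0.0903 to 0.154).

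C3ar1 and C5ar1 encode the receptors for the anaphylatoxins C3a and C5a on myeloid cells. C3ar1 (Entrez gene 12267, probe set 1419482_at) gave 319, 392 and 321 in the vehicle, 342, 292 and 328 after DNFB, and 432, 458 and 426 after BAC. Every BAC array lay above every other array, while the vehicle and DNFB arrays overlapped. The log2 change was 0.34 ± 0.14 after BAC (95% interval 0.050 to 0.64, limma adjusted p = 0.116) and -0.092 ± 0.14 after DNFB (-0.38 to 0.20, adjusted p = 0.735). DNFB minus BAC was -0.43 ± 0.14 (-0.73 to -0.14, adjusted p = 0.072), which did not pass. Its other probe sets, 1419483_at and 1442082_at, did not separate the BAC arrays, with log2 changes of 0.11 and -0.41 after BAC, and the mean of the 3 probe sets gave 0.016.

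C5ar1 (Entrez gene 12273, probe set 1422190_at) gave 183, 105 and 205 in the vehicle, 153, 83.9 and 146 after DNFB, and 177, 169 and 169.8 after BAC. The BAC arrays lay close together and above the DNFB arrays, and the vehicle arrays spread across both. Replicate 2 was the lowest array of C5ar1 in all 3 groups, by little after BAC. The log2 change was -0.32 ± 0.26 after DNFB (95% interval -0.87 to 0.22, limma adjusted p = 0.476) and 0.10 ± 0.26 after BAC (-0.44 to 0.65, adjusted p = 0.832). The BAC interval of C5ar1 holds both 0 and a change as large as that of Cd55. Its other probe set, 1439902_at, had log2 changes of 0.010 after DNFB and 0.26 after BAC.

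The complement receptors CR3 and CR4, which bind fragments of C3, share the integrin chain Itgb2 and differ in the chain Itgam or Itgax. Itgb2 gave 339, 377 and 304 in the vehicle, 654, 596 and 650 after DNFB, and 1002, 1061 and 1026 after BAC, so that the 3 groups did not overlap. It rose by 0.87 ± 0.12 after DNFB (limma adjusted p = 0.000151) and by 1.56 ± 0.12 after BAC (adjusted p = 3.41e-07). Itgb2 was lower after DNFB than after BAC, with a log2 difference of -0.69 ± 0.12 (adjusted p = 0.00244). Itgam gave 2.1, 45.3 and 43.3 in the vehicle, 57.5, 82.6 and 36.6 after DNFB, and 158, 149 and 127 after BAC, with every BAC array above every other array. All 3 vehicle signals lay below the 40th percentile of their array, and Itgam entered the test through its 3 BAC arrays and 1 DNFB array, so the size of its change has no measured base. It passed after BAC (limma adjusted p = 0.00701), with a log2 change of 1.99 that was 2.97 when the pseudocount was 1 and 1.18 when it was 64. Itgax rose from 122 ± 15.7 to 201 ± 39.5 after BAC (0.65 ± 0.20, adjusted p = 0.0393). That call ended without any 1 vehicle array and without BAC replicate 2 or 3 (adjusted p from 0.052 to 0.152).

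Cd93 and C1qbp were the other genes listed here with the receptors that passed. Cd93, a receptor of endothelial and myeloid cells, rose after BAC (log2 change 0.54 ± 0.14, limma adjusted p = 0.0142), a call that ended without vehicle replicate 2 or BAC replicate 1 or 3 (adjusted p from 0.0515 to 0.0719). It rests on 1 of 5 probe sets, and with their mean the change was 0.36 (adjusted p = 0.336). Only 2 of the 5 passed the filter, so that mean includes probe sets too dim to test. The other tested probe set, 1419589_at, had log2 changes of 0.40 ± 0.18 after BAC (limma adjusted p = 0.193) and 0.56 ± 0.18 after DNFB (adjusted p = 0.0644). After DNFB the log2 change of Cd93 was 0.38 ± 0.14 (adjusted p = 0.0805), with every DNFB array above every vehicle array. C1qbp, a protein that binds the heads of C1q, rose by 0.40 ± 0.13 after BAC (limma adjusted p = 0.0458). After DNFB its log2 change was 0.36 ± 0.13 (adjusted p = 0.076), again with no overlap with the vehicle, and DNFB minus BAC was -0.042 (adjusted p = 0.885). The BAC call ended in 8 of 9 analyses that left out 1 array, all but the one without BAC replicate 1 (adjusted p from 0.0532 to 0.2). The second probe set of C1qbp, 1448274_at, had a log2 change of 0.20 ± 0.13 after BAC (limma adjusted p = 0.371). With the mean of both probe sets the BAC change was 0.30 and did not pass (adjusted p = 0.113).

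Cd55 (Entrez gene 13136), the decay-accelerating factor, was the member that passed. Its probe set 1418762_at gave 320, 282 and 263 in the vehicle, 451, 329 and 377 after DNFB, and 410, 464 and 393 after BAC. All 6 treated arrays lay above the vehicle arrays, and DNFB and BAC overlapped. The mean signal was 288 ± 29.3 in the vehicle, 386 ± 61.9 after DNFB and 422 ± 37.3 after BAC (SD, n = 3). The log2 change was 0.53 ± 0.15 after BAC (95% interval 0.21 to 0.85, limma adjusted p = 0.0288), higher in 3 of 3 arrays. After DNFB it was 0.39 ± 0.15 (0.073 to 0.71, adjusted p = 0.101). The BAC call ended without vehicle replicate 2 or 3 and without BAC replicate 1 or 2 (adjusted p from 0.0553 to 0.114), and with each array centred on its median the change was 0.44 (adjusted p = 0.0903).

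The probe sets of Cd55 differed in how they separated the compounds. Probe set 1443906_at gave 58.9, 68.8 and 109.8 in the vehicle, 69.9, 73.7 and 86.3 after DNFB, and 179, 168 and 162 after BAC. In this probe set the DNFB arrays fell within the range of the vehicle arrays and all BAC arrays lay above both. These vehicle and DNFB signals were dim, beside filter levels of 46.2 to 60.7 and median signals of 71.2 to 86.3 in those arrays. In the fit of all probe sets the log2 change of 1443906_at was 1.0 ± 0.25 after BAC (limma adjusted p = 0.0182), and DNFB minus BAC was -1.01 ± 0.25 (adjusted p = 0.0301). Both sizes rest on this dim base. The other tested probe sets of Cd55 did not pass between the compounds, with -0.13 in 1418762_at (adjusted p = 0.693) and -0.70 in 1460242_at (adjusted p = 0.2045). Across the 14 member probe sets tested, 2 were higher after BAC, where 4.91% of all tested probe sets were higher and 10.2% passed in either direction, and both belong to Cd55. After DNFB 0 of 14 passed, beside 10.4% of all tested probe sets, with an unadjusted p under 0.05 in 5. Between DNFB and BAC 1 was lower, beside 3% of all tested probe sets lower and 4.96% in either direction.

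Probe set 1460242_at of Cd55 gave 138, 86.9 and 124 in the vehicle, 108, 227 and 85.5 after DNFB, and 184, 288 and 202 after BAC. Every BAC array lay above every vehicle array, and DNFB replicate 2 stood apart from the other DNFB arrays. Its log2 change was 0.86 ± 0.30 after BAC (limma adjusted p = 0.0807) and 0.15 ± 0.30 after DNFB (adjusted p = 0.811). The probe set shared with Cd55b lay below the 40th percentile in all 9 arrays and was not tested. With the mean of the 3 probe sets of Cd55 the change was 0.79 after BAC (adjusted p = 0.0046) and 0.18 after DNFB (adjusted p = 0.506). On that scale, which includes the dim 1443906_at, DNFB minus BAC was -0.61 and passed (adjusted p = 0.0341).

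**Figure D3:**
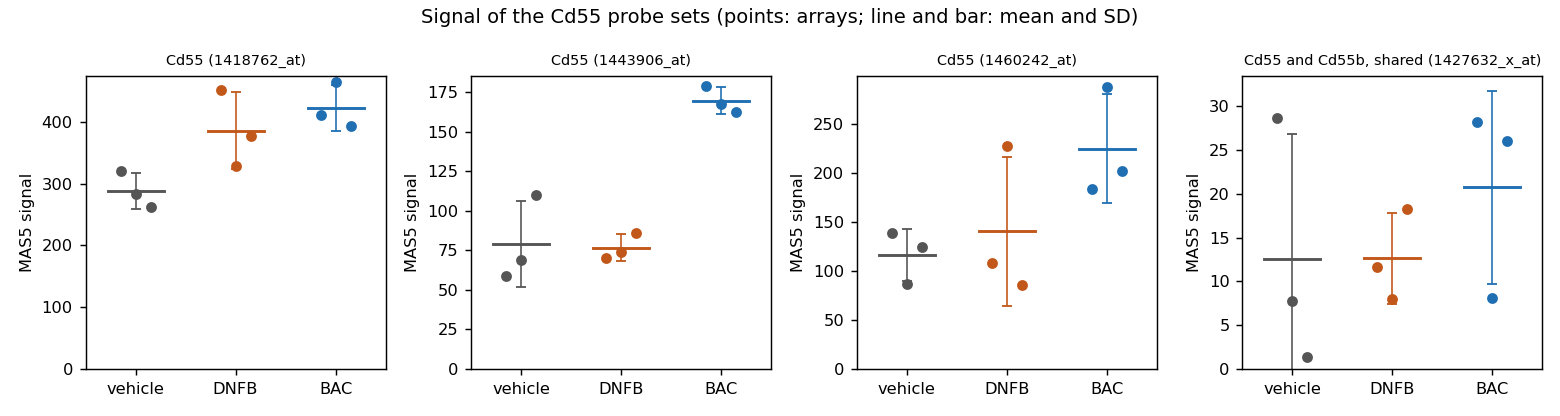
MAS5 signal of the probe sets of Cd55 by treatment, each panel on its own axis, with points for arrays, lines for the mean of 3 and bars for the SD. In 1443906_at the BAC arrays lay between 162 and 179 and all other arrays at or below 109.8, while 1418762_at was also higher after DNFB.

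RefSeq promoter sequences (GRCm38.p6) matched 4 of the 7 members: C1qb, C3ar1, C5ar1 and Cd55. The 250 bases before the start of Cd55 (chr1:130462745-130462994, minus strand) are shown because Cd55 was the member that passed. Those of C3ar1 (chr6:122856158-122856407, minus strand) are shown because its main probe set separated BAC from DNFB in every array. The main probe set of C5ar1 separated them too, and its promoter, which matched none of the 5 motifs below, is not printed. The AP-1 match of C3ar1 was therefore not shared by both genes with this separation. Both read 5′ to 3′ along the gene, with capitals for matches to GGGCGG or TGANTCA on either strand.
Cd55: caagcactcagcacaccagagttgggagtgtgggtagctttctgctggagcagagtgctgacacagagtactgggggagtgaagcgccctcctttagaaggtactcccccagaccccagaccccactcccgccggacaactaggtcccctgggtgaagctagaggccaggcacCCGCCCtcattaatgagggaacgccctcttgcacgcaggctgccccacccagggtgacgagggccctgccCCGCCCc
C3ar1: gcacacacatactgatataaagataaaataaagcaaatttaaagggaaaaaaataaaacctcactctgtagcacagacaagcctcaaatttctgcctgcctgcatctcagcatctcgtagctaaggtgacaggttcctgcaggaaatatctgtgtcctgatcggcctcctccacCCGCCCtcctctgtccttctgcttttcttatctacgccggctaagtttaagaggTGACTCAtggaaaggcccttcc
The 5 motifs searched on both strands were the Sp1 box GGGCGG, the AP-1 motif TGANTCA, the C/EBP motif TTGCNNAA, the STAT motif TTCNNNGAA and the NF-kB motif. Counting back from -1, the base before the start, Cd55 held the Sp1 box at -77 to -72 and at -7 to -2, a motif found in 32.7% of all 32851 promoters of this length. C3ar1 held it at -76 to -71, and an AP-1 motif at -22 to -16, found in 6.75% of promoters. The C/EBP, STAT and NF-kB motifs, found in 9.56%, 7.02% and 3.9% of promoters, matched in none of these 4, nor did any of the 5 motifs in C1qb or C5ar1. A match or its lack describes these letters in this window and no more.

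Of 4 tested regulators that act in fluid, 2 rose after DNFB and 1 after BAC, where 13.8% and 14.2% of all tested genes passed. Cfi and Vtn did not pass, with log2 changes of -0.26 and 0.70 after DNFB and 0.29 and 0.087 after BAC. Serping1, which encodes the C1 inhibitor, rose from 3386 ± 175 to 5117 ± 396 after DNFB (log2 change 0.59 ± 0.10, limma adjusted p = 0.000615) and to 4527 ± 212 after BAC (0.42 ± 0.10, adjusted p = 0.00865). With each array centred on its median the BAC change was 0.33 (adjusted p = 0.145). Clu encodes clusterin, which blocks assembly of the lytic complex. It rose from 3047 ± 349 to 4403 ± 549 after DNFB (0.53 ± 0.13, adjusted p = 0.012), and its change after BAC was 0.057 ± 0.13 (adjusted p = 0.818). Clu was higher after DNFB than after BAC by 0.47 ± 0.13 (adjusted p = 0.0389). The first of these calls ended without vehicle replicate 3 or DNFB replicate 2 (adjusted p of 0.0624 and 0.06), and the second without vehicle replicate 1, DNFB replicate 2 or 3, or BAC replicate 1 or 2 (adjusted p from 0.056 to 0.165). With the mean of the 4 probe sets of Clu both calls ended (0.43, adjusted p = 0.0512, and 0.33, adjusted p = 0.175). Among the membrane regulators beside Cd55, Cd59a, which guards against lysis, had log2 changes of -0.086 ± 0.17 after DNFB and -0.29 ± 0.17 after BAC. Cd46, a cofactor for cleavage of C3b, had -0.37 ± 0.45 and -0.16 ± 0.45. It was dim (15.2 to 73.8), above the filter level in 4 of 9 arrays, so that a change could be missed. Cr1l had 0.26 ± 0.12 after DNFB and 8.8e-05 ± 0.12 after BAC. Its DNFB minus BAC was 0.26 ± 0.12 (limma adjusted p = 0.226). Susd4 had -0.34 ± 0.32 and 0.54 ± 0.32, and DNFB minus BAC was -0.88 ± 0.32 (adjusted p = 0.119). None of these 4 genes passed in any comparison. The unadjusted limma p was under 0.05 in 1 after DNFB, 0 after BAC and 2 between the compounds.

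In the wider complement list of 53 other symbols, 43 had a probe set of their own and 28 were tested. After DNFB 7 of the 28 rose and 0 fell, or 25%, beside 13.8% called among all tested genes. After BAC 8 rose and 0 fell, or 28.6%, beside 14.2%, Itgam among the 8. Between DNFB and BAC 2 were higher and 1 lower, or 10.7%, beside 6.8%. The median log2 change of the list was 0.34 after DNFB and 0.28 after BAC. The classical pathway list had 3 of 4 higher after DNFB and 1 of 4 after BAC, and the receptor list 1 of 7 and 5 of 7. Itgam, among these 5, passed the filter without any vehicle array. After DNFB, Cd93 and C1qbp fell short of the threshold (limma adjusted p = 0.0805 and 0.076), as did Itgam and Itgax (0.247 and 0.194). Compared directly, 1 of 4 classical genes was higher after DNFB than after BAC, and 1 of 7 genes of the receptor list lower. Whether the 2 lists differ from each other in their response to the compounds was not tested. None of 7 lectin pathway genes passed in either comparison, by limma, with a p under 0.05 before adjustment in 1 after DNFB and 0 after BAC. Among them Mbl1, Masp2, Fcnb and Colec11 were dim, above the 40th percentile of their array in 3, 4, 6 and 6 of 9 arrays. The SE of their log2 changes was 0.38 to 0.42, so that changes in these genes could be missed. Without any 1 array the count of the wider list lay between 3 and 8 after DNFB and between 5 and 7 after BAC. The DNFB count was 4 without vehicle replicate 1, DNFB replicate 2 or DNFB replicate 3 and 3 without vehicle replicate 3, and the BAC count was 5 without vehicle replicate 2 or BAC replicate 3. The count of 3 between DNFB and BAC was 1 without DNFB replicate 2 or 3.

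**Figure D4:**
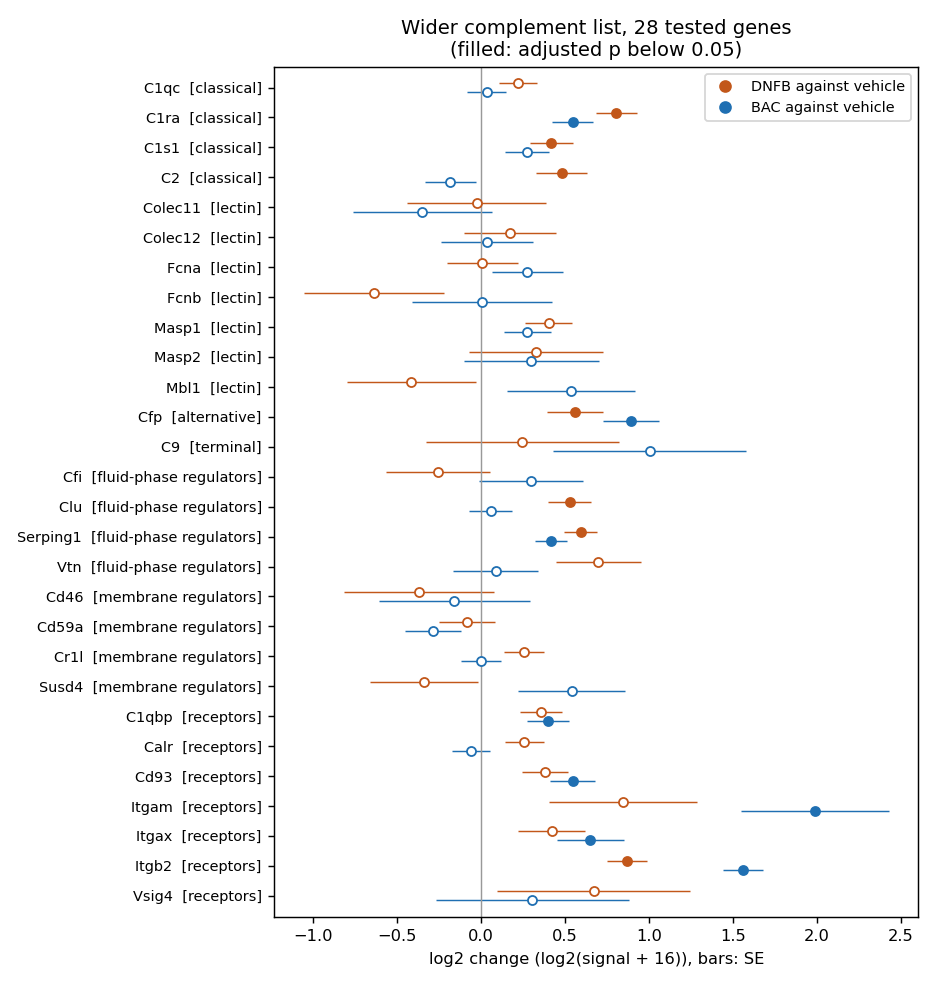
Log2 change against the vehicle after DNFB and after BAC for the 28 tested genes of the wider list, on the log2(signal + 16) scale, grouped by role, with bars for the SE and filled points where the adjusted p was below 0.05. Filled points lie to the right of 0 in every case, and Itgb2 after BAC lies at 1.56. Itgam after BAC is plotted at 1.99, but its vehicle signals lay below the 40th percentile and the value was 1.18 with a pseudocount of 64.

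The terminal pathway, which forms the lytic pore, was barely measured. Of its listed genes 1 was tested, C9, named here after its values were seen, with log2 changes of 0.24 ± 0.58 after DNFB and 1.0 ± 0.58 after BAC, and neither passed. Hc, which encodes C5, had signals between 11.1 and 84.7 and was above the 40th percentile of its array in 1 of 9 arrays. Further genes left untested for low signal included C6, C8a, C8b, C8g, Cr2, Mbl2 and Cd55b, 15 in all with Hc. Low signal on these arrays is not evidence that a transcript was absent.

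Markers of several cell types moved with the same treatments, and in whole skin more cells of a type and more RNA per cell cannot be told apart. Beside every marker count given below stand the shares of all tested genes that passed in either direction. These were 13.8% after DNFB, 14.2% after BAC and 6.8% between the compounds. The summed signal of 8 neutrophil markers ranged from 1357 to 5840 in the vehicle arrays, the highest in vehicle replicate 2, from 10889 to 20616 after DNFB and from 19361 to 28087 after BAC. Most of this sum came from S100a8 (means of 1172, 6587 and 10276 in vehicle, DNFB and BAC) and S100a9 (1145, 6493 and 10418). Csf3r was 88.1 in vehicle replicate 2, within the range of the other vehicle arrays. Of the 8 neutrophil markers, 5 rose after DNFB and 6 after BAC. The defining marker Csf3r ranged from 70.7 to 94.8 in the vehicle, from 361 to 671 after DNFB and from 779 to 993 after BAC. Cxcr2, also defining, ranged from 38.2 to 87.7, from 89.1 to 100.2 and from 227 to 296. Their part in the changes of Itgb2, Itgam and Cfp was not tested. The sum of 10 monocyte and macrophage markers ranged from 11243 to 12947 in the vehicle, from 14108 to 15651 after DNFB and from 16507 to 17249 after BAC. The largest part of this sum was Lyz2, with means of 5776, 7373 and 8972 in vehicle, DNFB and BAC. Cd14 had means of 497, 865 and 1509. Against the vehicle 4 of 10 were higher after DNFB and 4 after BAC, and 2 of 10, Ccr2 and Cd14, were lower after DNFB than after BAC. Csf1r, a defining macrophage marker, rose after DNFB (0.39 ± 0.11, limma adjusted p = 0.0306) and did not pass after BAC (0.074, adjusted p = 0.719). Cd68, also defining, rose after both (0.58 and 0.56). Adgre1, also defining, lay between 318 and 348 after DNFB and between 271 and 452 in the vehicle. Its log2 changes were -0.14 after DNFB and 0.11 after BAC. Cd163, Mrc1 and Mertk had -0.36, -0.11 and -0.068 after DNFB and -0.25, 0.28 and -0.31 after BAC, and none of these passed. The part of these markers in the C1q values was not tested.

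The sum of 10 fibroblast markers ranged from 65107 to 73742 in the vehicle, from 82602 to 92994 after DNFB and from 74535 to 85430 after BAC, and 4 rose after DNFB and 2 after BAC. The defining markers Pdgfra, Col1a1 and Dcn did not pass after either compound. Their log2 changes were 0.020, 0.36 and 0.34 after DNFB and -0.20, 0.24 and 0.14 after BAC. Fibroblasts are a known source of C1r, C1s, C4 and the C1 inhibitor, and their part in those changes was not tested. The sum of 11 adipocyte markers ranged from 30675 to 34044 in the vehicle, from 36406 to 39843 after DNFB and from 33141 to 39705 after BAC, with 3 higher and 1 lower after DNFB and 2 higher after BAC. Of 8 mast cell markers 5 rose after DNFB and 2 after BAC, of 8 endothelial markers 2 and 1, and of 8 skeletal muscle markers 5 and 0 (2 with an unadjusted p under 0.05). Of 9 keratinocyte markers 5 fell after DNFB and 3 after BAC, and their sum ranged from 70861 to 81695 in the vehicle, from 63507 to 75423 after DNFB and from 71431 to 75847 after BAC. None of the 22 defining markers measured was at 0 in any array, the lowest signal being 38.2, of Cxcr2.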

How the data were processed

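Per the submitters' processing notes, the deposited intensities were made by the authors with MAS5 and the Affymetrix Expression Console, as 1 linear signal per probe set and array (no version stated there). Per the labels' protocols, biotinylated cRNA was prepared from total RNA. Trimming 2% at each end gave the same mean in each array, so the arrays had been scaled; detection calls and scan dates were not used here.

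Of 45101 probe sets, 64 controls were left out; 34945 had 1 gene symbol in the platform annotation, 932 several and 9160 none listed. A gene stood by its probe set with the highest mean. Signals were taken as log2(signal + 16), which understates changes of dim genes, and genes were tested when 3 or more arrays had a value above their own 40th percentile. All 9 arrays entered one linear model in limma 3.58.1 (R 4.3.3; lmFit, eBayes with an intensity trend), two-sided, with Benjamini-Hochberg adjustment over all tested genes and a threshold of 0.05. A second fit took every probe set on its own (29987 tested). With 3 arrays a group, no exact permutation p can fall below 0.1, and none was computed. The procedure was tested on simulated data.

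The members, the wider complement list and the 8 marker lists were chosen with earlier results of these data known. Genes named were all members, every gene of the wider list past the threshold in any comparison, and partners of members such as C1qc, Hc, Cd46 and Cd59a. Cfi, Vtn, Ccr2, Cd14, S100a8, S100a9, Mbl1, Masp2, Fcnb and Colec11 were named after their values were seen. So were Cr1l, Susd4, Lyz2, Cd163, Mrc1 and Mertk. Alternatives changed the pseudocount, filter, normalization, trend, probe set rule, arrays in the fit and replicate block, and left out each array.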

Additional observations from a re-analysis of the deposited data

How the results depend on the processing

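Values of the tested members and of the wider list genes that passed were recomputed under alternatives, 1020 in all. Of these, 900 kept their direction and their side of the threshold, 96 lost a call, 9 gained one and 15 changed sign. None of those 15 had passed. The count of members called was 1 after BAC in the reported setting, 0 with each array centred on its median, 0 without the intensity trend and 2 after quantile normalization, and 0 to 1 without any 1 array. After DNFB it was 0, with 1 after quantile normalization and 0 to 1 without any 1 array, and between DNFB and BAC 0, with 1 for the mean of the probe sets of a gene. The wider list count of 7 after DNFB was 3 with each array centred on its median, 4 with every probe set fitted on its own, 3 with the mean of the probe sets, 4 without a filter, 3 without the trend, and 3 to 8 without any 1 array. The count of 8 after BAC was 3 with each array centred on its median, 5 with the mean of the probe sets, 5 without the trend, and 5 to 7 without any 1 array. The count of 3 between DNFB and BAC was 1 with the mean of the probe sets and 1 to 3 without any 1 array. Causes were not tested. Of all genes called after BAC, 46.3% were higher, and 34% with each array centred on its median. Changes of sign were in Clu after BAC (-0.023 after quantile normalization, -0.029 with median centring, -0.056 to 0.14 without any 1 array), in Cfb between DNFB and BAC (0.036 with median centring, -0.15 to 0.098 without any 1 array) and in C1qbp between DNFB and BAC (0.031 with median centring, -0.18 to 0.090 without any 1 array). Without any 1 array C3ar1 after DNFB lay between -0.14 and 0.0014, C1qa between -0.37 and 0.091 after DNFB, -0.12 and 0.0090 after BAC, and -0.33 and 0.14 between the compounds, and C5ar1 after BAC between -0.16 and 0.28.

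With the replicate number as a block, the members called were 0 after DNFB, 1 after BAC and 0 between the compounds, and the wider list counts were 5, 7 and 2. Arrays with the same number deviated together with r from -0.12 to 0.15 in 9 pairs, and 1 pair was over 0.1, so the numbers were not taken to pair the samples. Signals near the 40th percentile, such as that of Itgam in the vehicle, cannot be told from background here.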
